A study of Macaca fascicularis with 5 samples.

Results

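Spiny projection neurons are the main cell type of the striatum, and 29 genes known as their markers were followed here in the lateral geniculate nucleus (LGN), the thalamic relay of vision. The members are PPP1R1B, ADORA2A, RGS9, PDE10A, PDE1B, GPR6, PENK, PDYN, TAC1, ADCY5, GNAL, ARPP21, ARPP19, RASGRP2, RASD2, BCL11B, FOXP1, MEIS2, ISL1, RXRG, RARB, STRIP2, SYNDIG1L, LRRC10B, KCNH4, ACTN2, ANO3, SH3RF2 and SLC35D3. They were chosen by name as markers, with earlier results of these data known and with the dopamine receptors left out. Each was measured as the sum of all transcripts carrying its symbol. All 29 of the 29 were found among the 20576 symbols of the deposited table, and all 29 passed a filter on low counts.

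RNA was sequenced from the LGN of 5 young cynomolgus monkeys (Macaca fascicularis), with 1 library per animal. The 2 deprived libraries, Deprivated-316 and Deprivated-326, are from the left LGN of monkeys whose left eyelid had been sutured from 1 to 3 months of age by the labels, a model of amblyopia by monocular form deprivation. The 3 control libraries, Control-307, Control-317 and Control-331, are from untreated monkeys. All animals are labelled as 3 months old, and the study's methods place the collection 3 months after the suture. By title Control-317 and both deprived libraries are left and Control-307 and Control-331 right, although the descriptions of the controls say that both sides were mixed. The right LGN of the deprived monkeys was not sequenced, its RNA being of low quality. Total estimated counts were 7607859 and 7391844 in the deprived libraries and ran between 9424975 and 12966019 in the control libraries.

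In the striatum these neurons form a direct and an indirect output pathway. The dopamine receptor DRD1 in the direct pathway and the adenosine receptor ADORA2A in the indirect one act through the stimulatory G protein subunit encoded by GNAL and the adenylyl cyclase encoded by ADCY5, which makes cyclic AMP. The kinase that cyclic AMP activates phosphorylates DARPP-32, the product of PPP1R1B, which then inhibits protein phosphatase 1, and phosphodiesterases such as PDE10A end the signal. Neurons of the direct pathway make substance P and dynorphin, from TAC1 and PDYN, and those of the indirect pathway make enkephalin from PENK. The LGN itself is built mainly of glutamatergic relay neurons and is not known for spiny projection neurons.

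The libraries did not fall into the labelled groups for these genes. Control-307 and Control-331 were high, both deprived libraries were intermediate and Control-317 was low. The members together took 0.501% and 0.411% of all estimated counts in Deprivated-316 and Deprivated-326, against 1.51% in Control-307, 1.41% in Control-331 and 0.152% in Control-317. The mean over the members of log2 CPM (CPM being counts scaled to the TMM-normalized library total, prior count 2) was 6.22 and 5.99 in the deprived libraries and 7.46, 7.495 and 4.497 in Control-307, Control-331 and Control-317. Control-307 and Control-331 are called the right-titled controls below and are given in that order. The control group thus spanned the deprived values from both sides. In bulk tissue, fewer cells of a type and less RNA per cell cannot be told apart.

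**Figure D1:**
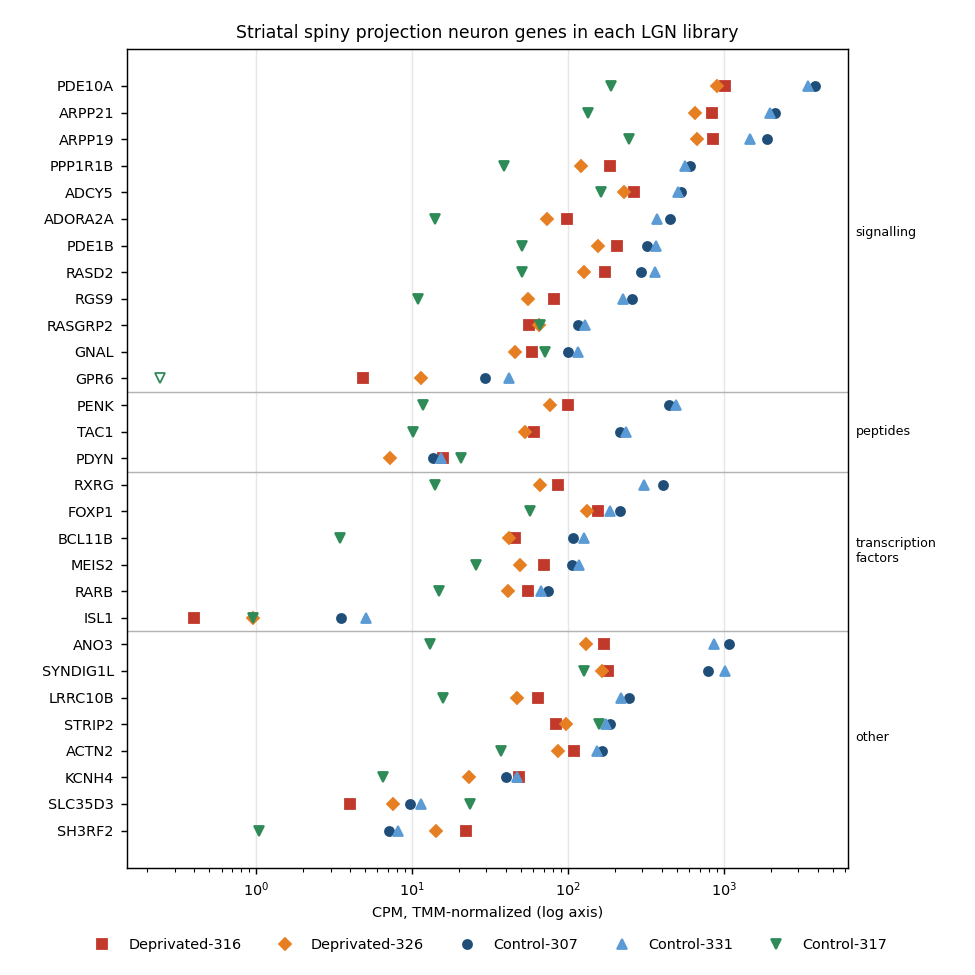
CPM of each of the 29 members (rows, by role) in the 5 libraries, on a log axis, with 1 point per library. In most rows Control-307 and Control-331 lie to the right, Deprivated-316 and Deprivated-326 in between and Control-317 to the left. The open triangle of GPR6 marks a count of 0 in Control-317, drawn at the level of 3 counts, 0.24 CPM.

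Over all genes, too, Control-317 had no close partner. Across the 14317 genes tested, the correlation of log2 CPM was 0.945 for the deprived pair and 0.952 for the right-titled pair. Control-317 had correlations of 0.849 and 0.872 with the right-titled controls and of 0.873 and 0.899 with Deprivated-316 and Deprivated-326. Correlations of the deprived libraries with the right-titled controls, at 0.888 to 0.914, were not much higher. These are correlations across genes, which are not independent replicates. Group mean counts had been published for 310 of the transcripts in the table. For all 310 they were the means of Control-307, Control-331 and Deprivated-316 set against Control-317 and Deprivated-326, and for 20 those of the labelled groups. The cause of this mismatch was not tested. The comparisons below follow the labels, and the main ones are also given without Control-317, among the left-titled libraries and with Control-317 and Deprivated-316 exchanged.

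Markers of other cells also differed between the libraries, and most did not have the order of the striatal genes. The mean log2 CPM of 8 relay neuron markers, cells of the LGN itself, was 4.99 and 6.11 in Deprivated-316 and Deprivated-326 and 3.51, 4.65 and 6.65 in Control-307, Control-331 and Control-317, so that the libraries highest in striatal genes were lowest in relay markers. Summed relay marker CPM was 422 and 1079 in the deprived libraries, 165 and 298 in the right-titled controls and 1989 in Control-317. SLC17A6, the vesicular glutamate transporter of relay neurons, had 134 and 410.4 CPM after deprivation and 16.4, 68.6 and 679.6 CPM in Control-307, Control-331 and Control-317. The 8 did not all go this way. Without Control-317, 7 had a higher estimate in the deprived libraries and 1 a lower one, with a log2 fold change of -0.96. Markers of striatal cholinergic neurons (4 genes, each above 0 in every library) summed to 16.1 and 16.5 CPM in the deprived animals, against 65.2 and 84.3 CPM in the right-titled controls and 1.60 CPM in Control-317. They were low in Control-317, and only 3 of the 4 passed the filter on low counts among the left-titled libraries. Markers of cortical or hippocampal excitatory neurons went another way, with sums over 6 genes of 366 and 178 CPM after deprivation and 4.40 to 14.4 CPM in the control libraries, 2 of the 6 being at 0 in Control-307 and 3 in Control-317. TTR, the transport protein made by the choroid plexus, had 14.9 and 48.9 CPM in the deprived animals, 68.0 and 119 CPM in the right-titled controls and 1027 CPM in Control-317. GABAergic neurons are a class that includes spiny projection neurons. Their 3 markers summed to 302 and 258 CPM after deprivation, 398 and 508 CPM in the right-titled controls and 175 CPM in Control-317. The sums thus had the order of the members, but the mean log2 CPM did not. It was 4.36 and 4.51 in Deprivated-316 and Deprivated-326 and 4.175, 6.38 and 4.44 in Control-307, Control-331 and Control-317. In Control-307, 1 of the 3 was at 0. Oligodendrocyte markers had mean log2 CPM of 8.89 and 9.73 in the deprived libraries and 10.27, 9.88 and 9.50 in Control-307, Control-331 and Control-317. Astrocyte means lay between 6.73 and 7.16 and microglial means between 5.66 and 6.32 over the 5 libraries. The part of these markers in the results below was not tested.

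**Figure D2:**
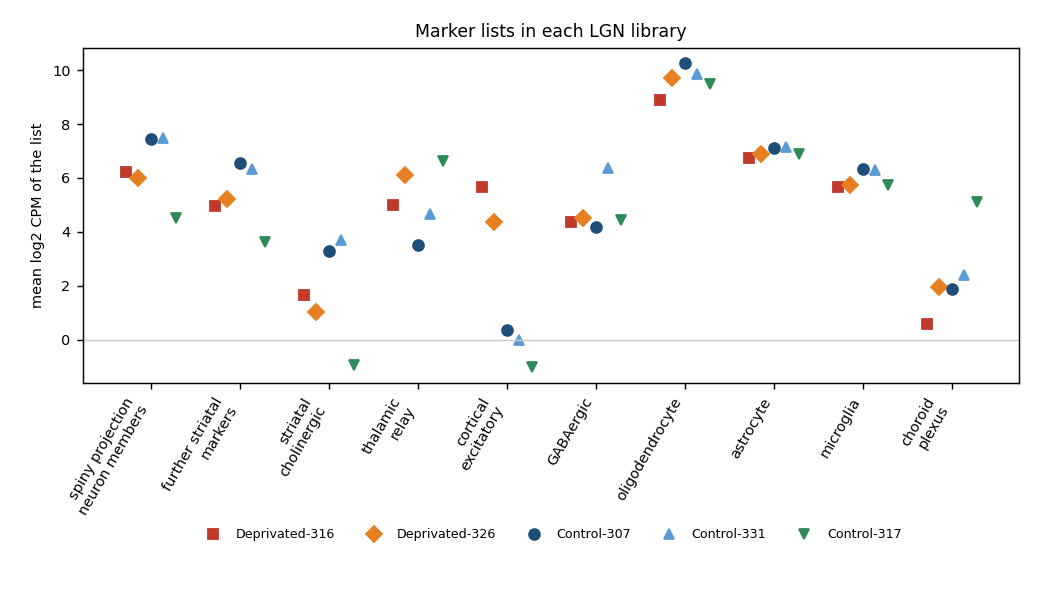
Mean log2 CPM of the 29 members and of 9 marker lists in each library, with 1 point per library. The members, further striatal markers and cholinergic markers are highest in Control-307 and Control-331 and lowest in Control-317, relay markers are highest in Control-317, and cortical or hippocampal excitatory markers are highest in both deprived libraries.

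Per transcript length, the members differed widely in level. FPKM (fragments per kilobase of transcript, scaled to mapped fragments) summed over the transcripts of a symbol was highest for ARPP19, with 197 and 156 FPKM in the deprived libraries and 606, 411.5 and 34.9 FPKM in Control-307, Control-331 and Control-317. ARPP21 and PDE10A followed, and PDE10A had 71.5 and 62.4 FPKM in the deprived libraries and 286, 265 and 15.2 FPKM in the control libraries in the same order, and PENK had 44.8 and 34.9 FPKM against 206, 236 and 5.47 FPKM. At the other end ISL1 stayed between 0.07 and 1.39 FPKM in all 5 libraries and SH3RF2 between 0.19 and 2.51 FPKM. Levels in the remaining members lay between these, and a member's spread over the libraries was often larger than its distance from its neighbours in this order.

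The receptors and G proteins of the pathway were followed first. ADORA2A, the adenosine receptor of indirect pathway neurons, had 99.2 and 73.8 CPM after deprivation, 452 and 375 CPM in the right-titled controls and 13.9 CPM in Control-317. GPR6, an orphan receptor of the same neurons, had 4.83 and 11.5 CPM in the deprived animals, 29.2 and 41.6 CPM in the right-titled controls and 0 in Control-317, which allows up to 0.24 CPM by 3 counts. Both receptors thus lay between the 2 kinds of control library in the deprived animals. GNAL behaved otherwise, with 59.0 and 45.7 CPM after deprivation and 101, 116 and 71.3 CPM in Control-307, Control-331 and Control-317, so that the groups did not overlap. RGS9, which speeds the shut-off of G proteins, had 81.3 and 55.3 CPM in the deprived animals, 256 and 226 CPM in the right-titled controls and 10.96 CPM in Control-317.

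Enzymes of cyclic nucleotides showed the order of libraries to different degrees. ADCY5 had 267 and 228 CPM after deprivation, 530.2 and 511 CPM in the right-titled controls and 163 CPM in Control-317, one of the narrower ranges. PDE10A, which breaks down cyclic AMP and cyclic GMP, had 1017 and 906 CPM in the deprived animals, 3866 and 3456 CPM in the right-titled controls and 190 CPM in Control-317. PDE1B, a phosphodiesterase activated by calcium and calmodulin, had 207.5 and 156 CPM after deprivation, 322 and 369 CPM in the right-titled controls and 50.5 CPM in Control-317. For each of the 3 enzymes the deprived values lay above Control-317 and below both other controls.

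PPP1R1B had 186 and 120.5 CPM after deprivation, 603 and 563 CPM in the right-titled controls and 39.1 CPM in Control-317. ARPP21, a phosphoprotein regulated by cyclic AMP, had 839.7 and 648.5 CPM in the deprived animals, 2141 and 1984 CPM in the right-titled controls and 134.5 CPM in Control-317. ARPP19, which inhibits protein phosphatase 2A when phosphorylated and is used by many cell types, had 847 and 669 CPM after deprivation, 1893 and 1466 CPM in the right-titled controls and 246 CPM in Control-317. These phosphoproteins shared the order of PDE10A, with Control-317 less far below the deprived libraries for ARPP19 than for PPP1R1B and ARPP21. RASD2, the small GTPase Rhes, had 173 and 127 CPM in the deprived animals, 293 and 362 CPM in the right-titled controls and 50.7 CPM in Control-317. RASGRP2, an exchange factor for the GTPase Rap1, had 56.6 and 65.0 CPM after deprivation and 115, 128 and 66.5 CPM in Control-307, Control-331 and Control-317, where Control-317 was close to Deprivated-326.

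Of the peptide precursors, PENK had 100.4 and 76.8 CPM after deprivation, 444 and 489.9 CPM in the right-titled controls and 11.7 CPM in Control-317. TAC1 had 60.6 and 53.2 CPM in the deprived animals, 216 and 237 CPM in the right-titled controls and 10.1 CPM in Control-317. The precursors of the indirect pathway (PENK) and of the direct pathway (TAC1) thus had the same order of libraries. PDYN, also of the direct pathway, was low throughout, at 15.7 and 7.23 CPM after deprivation and 13.6, 15.4 and 20.6 CPM in Control-307, Control-331 and Control-317, and its groups overlapped.

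Among the transcription factors, RXRG, a retinoid X receptor, had 86.0 and 66.2 CPM after deprivation, 404.5 and 308 CPM in the right-titled controls and 14.01 CPM in Control-317. BCL11B, which is needed for the maturation of spiny projection neurons in mice and is also made in deep cortical layers, had 45.7 and 42.0 CPM in the deprived animals, 108 and 126 CPM in the right-titled controls and 3.44 CPM in Control-317. For both factors Control-317 was far below every other library. FOXP1, MEIS2 and RARB, a forkhead factor, a homeobox factor and a retinoic acid receptor that are also used by other neurons, had the same order with narrower ranges. FOXP1 had 156 and 132 CPM after deprivation and 216, 187 and 56.7 CPM in Control-307, Control-331 and Control-317, and MEIS2 had 69.7 and 49.3 CPM against 106, 117 and 25.6 CPM. RARB had 55.1 and 41.0 CPM in the deprived animals and 74.9, 67.4 and 14.8 CPM in Control-307, Control-331 and Control-317. ISL1, a homeobox factor of direct pathway neurons, was near the floor, with 0.402 and 0.955 CPM after deprivation and 3.52, 5.07 and 0.96 CPM in the same control libraries. Counts of ISL1 were too few in Deprivated-316, Deprivated-326 and Control-317 for an order among these 3.

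The remaining members encode channels, membrane proteins and others of varied function. ANO3, of the anoctamin family of membrane proteins, had 171 and 130.5 CPM after deprivation, 1075 and 859 CPM in the right-titled controls and 12.96 CPM in Control-317, the widest range after GPR6. LRRC10B, a leucine-rich repeat protein, had 64.2 and 46.8 CPM in the deprived animals, 245.5 and 220 CPM in the right-titled controls and 15.8 CPM in Control-317. SYNDIG1L, a membrane protein related to a synapse differentiation factor, had 182 and 165 CPM after deprivation, 788 and 1019 CPM in the right-titled controls and 127.5 CPM in Control-317, so that Control-317 came close to the deprived values. ACTN2, an actin-binding protein of dendritic spines and muscle, had 109 and 86.5 CPM in the deprived animals, 166 and 153 CPM in the right-titled controls and 37.1 CPM in Control-317.

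A few members broke the order. STRIP2, a subunit of a phosphatase and kinase complex, had 83.4 and 97.7 CPM after deprivation and 186, 175 and 158 CPM in Control-307, Control-331 and Control-317, with all 3 control libraries close together and above both deprived ones. SLC35D3, of a family of nucleotide sugar transporters, had 4.02 and 7.51 CPM in the deprived animals and 9.73, 11.4 and 23.5 CPM in the same control libraries, with Control-317 the highest. SH3RF2, a protein with RING finger and SH3 domains, was the 1 member higher in both deprived libraries than in any control, at 22.3 and 14.3 CPM against 7.14, 8.13 and 1.04 CPM. KCNH4, a voltage-gated potassium channel, had 48.5 and 23.1 CPM after deprivation and 39.8, 47.2 and 6.48 CPM in Control-307, Control-331 and Control-317, and its groups overlapped.

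Counted over the members, Control-317 was the lowest library for 23 of 29, where it was lowest for 29.5% of all genes tested. Control-307 or Control-331 was the highest for 25 of 29, against 38.8% of all genes. Both of them lay above both deprived libraries, and these above Control-317, for 21 of 29, against 12.4% of all genes. That order held for 10 of the 12 signalling genes, 2 of 3 peptide precursors, 5 of 6 transcription factors and 4 of the 8 others. The exceptions were GNAL, RASGRP2, PDYN, ISL1, STRIP2, KCNH4, SH3RF2 and SLC35D3. Of these, ISL1 had too few counts for an order among Deprivated-316, Deprivated-326 and Control-317. Both the order and the members were chosen with earlier results of these data known. These counts describe 5 libraries and carry no test.

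Relative to the mean of Control-307 and Control-331, the members had a median level of 40.7% in Deprivated-316, 38.7% in Deprivated-326 and 14.6% in Control-317. In Control-317, 12 of the 29 were under 10% of that mean, against 2.56% of all genes tested, from 0 for GPR6 and 1.34% for ANO3 to 6.77% for LRRC10B. For ANO3 the deprived libraries were at 17.7% and 13.5%, for PENK at 21.5% and 16.4% and for ADORA2A at 24.0% and 17.9%, while for FOXP1 they were at 77.4% and 65.3%. Both deprived libraries were under 50% of the same mean for 14 of 29 members, against 3.78% of all genes tested. The ratio of Control-307 to Control-331 was within 1.5-fold for all 29 members (0.694 to 1.31). The ratio of Deprivated-316 to Deprivated-326 had a median of 1.29 (0.421 to 2.17). It was within 1.5-fold for 22 of 29 and above 1 for 24 of 29. The share of all genes within 1.5-fold was not counted.

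**Figure D3:**
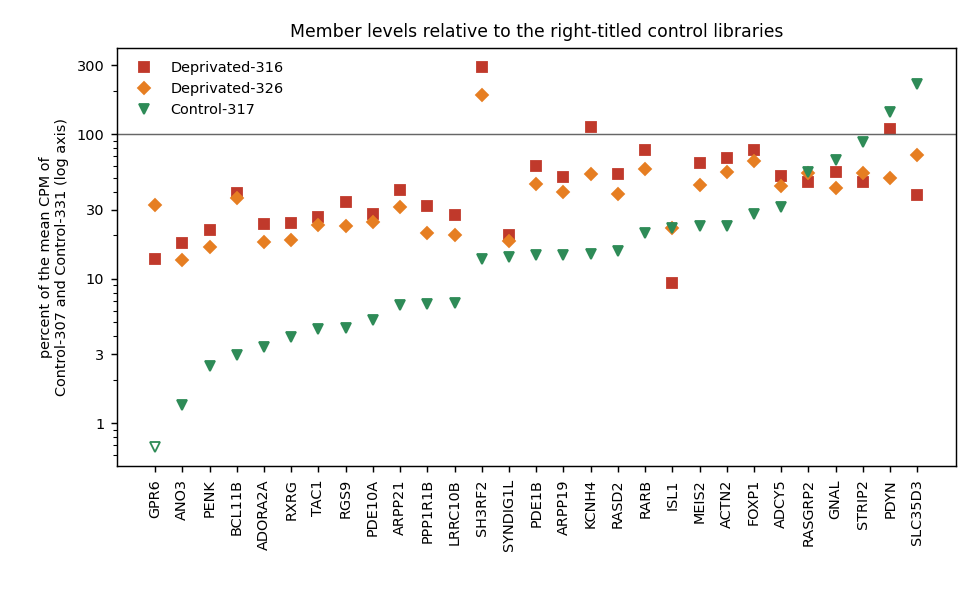
Level of each member in Deprivated-316, Deprivated-326 and Control-317 as a percent of its mean CPM in Control-307 and Control-331, on a log axis, ordered by Control-317; the line marks 100%. For the members on the left the deprived points lie between 13.5% and 40.7% and Control-317 at or under 6.77%, while PDYN and SLC35D3 on the right are above 100% in Control-317. The open triangle of GPR6 marks 0 counts, drawn at 3 counts.

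By the labels, 27 of 29 members had a lower estimate in the deprived libraries, against 55.1% of all 14317 genes, and none passed the test. The median log2 fold change of deprived over control was -0.93 over the members and -0.06 over all genes. In edgeR's quasi-likelihood test 0 of 29 passed an adjusted p of 0.05 (adjusted p of 0.317 to 0.971), where 0% of all genes were called in either direction. At an unadjusted p under 0.05 there were 3 of 29 on the lower side, against 4.07% of all genes, and 0 on the higher side, against 5.69%. DESeq2 called 1 member as lower, STRIP2, and 0 as higher, against 0.443% and 1.69% of all genes, and edgeR's exact test called 0 in both directions, against 0.203% and 1.38%. The groups did not overlap for 5 members on the lower side (GNAL, RASGRP2, ISL1, STRIP2 and SLC35D3) and 1 on the higher side (SH3RF2), against 15.5% and 15.2% of all genes. For ISL1 that rests on 0.955 CPM in Deprivated-326 and 0.960 CPM in Control-317, which cannot be ordered at this depth. For RASGRP2 it rests on a narrow gap, between 65.0 CPM in Deprivated-326 and 66.5 CPM in Control-317. The smallest two-sided p that an exact rank-sum test could give on these 5 libraries is 0.2.

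The 8 members with the smallest p-values had these values in edgeR's quasi-likelihood test over all 5 libraries. For STRIP2 the log2 fold change was -0.93, with a standard error of 0.20 and an adjusted p of 0.317 (DESeq2 adjusted p = 0.00547). GNAL had -0.88 (standard error 0.28, adjusted p = 0.449), SLC35D3 -1.37 (standard error 0.54, adjusted p = 0.512) and ISL1 -2.21 (standard error 0.94, adjusted p = 0.534). For STRIP2, GNAL and SLC35D3 a deprived library, not Control-317, was the lowest. RASGRP2 had -0.77 (standard error 0.33, adjusted p = 0.536), SYNDIG1L -1.90 (standard error 0.86, adjusted p = 0.546), SH3RF2 1.75 (standard error 0.81, adjusted p = 0.551) and LRRC10B -1.53 (standard error 1.08, adjusted p = 0.684). For PENK, ANO3 and PDE10A the standard errors were 1.37, 1.54 and 1.15 with all 5 libraries and 0.178, 0.206 and 0.142 without Control-317.

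The calls depended on Control-317. Without it, edgeR's quasi-likelihood test called 20 of 29 members as lower in the deprived libraries and 0 as higher, against 3.68% and 6.46% of all genes tested. Log2 fold changes of the 20 ran from -2.68 for ANO3 to -0.93 for PDE1B, with adjusted p of 0.0144 to 0.0456. All 12 signalling genes were called, as were PENK, TAC1, BCL11B, RXRG, ANO3, SYNDIG1L, LRRC10B and STRIP2. Not called were PDYN, FOXP1, MEIS2, ISL1, RARB, KCNH4, ACTN2, SLC35D3 and SH3RF2, the last with a log2 fold change of 1.26 (edgeR adjusted p = 0.059). Control-317 was the lowest library for most members, so that leaving it out raised their control level. In this fit both controls are titled right and both deprived libraries left, so that condition and side cannot be told apart. Other markers differed too. Relay markers summed to 422 and 1079 CPM after deprivation and 165 and 298 CPM in these controls. Cortical or hippocampal excitatory markers summed to 366.5 and 178 CPM against 14.4 and 6.79 CPM. Their part in the calls was not tested.

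Within the left-titled libraries the direction was the opposite. Against Control-317 alone, 23 of the 28 members tested were higher in the deprived libraries, with a median log2 fold change of 1.84, while 50.3% of all genes were higher with a median of 0.005. At an unadjusted p under 0.05 edgeR's quasi-likelihood test had 22 of 28 higher, against 14.9% of all genes, and 2 lower (STRIP2 and SLC35D3), against 11.2%, and 0 passed the adjusted threshold (adjusted p of 0.072 to 0.741). BCL11B had a log2 fold change of 3.67 and ANO3 one of 3.54, and GPR6 was at least 33.9-fold higher against a floor of 3 counts in Control-317. GNAL, RASGRP2, PDYN, STRIP2 and SLC35D3 were the 5 members on the lower side, and ISL1 had too few counts to be tested. The fit rests on 1 control library, which was assumed to vary like the deprived ones. STRIP2, at -0.93 with all 5 libraries, -0.99 without Control-317 and -0.80 among the left-titled libraries, had a similar size in these 3 fits, but was at -0.21 (edgeR adjusted p = 0.903) with Control-317 and Deprivated-316 exchanged.

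**Figure D4:**
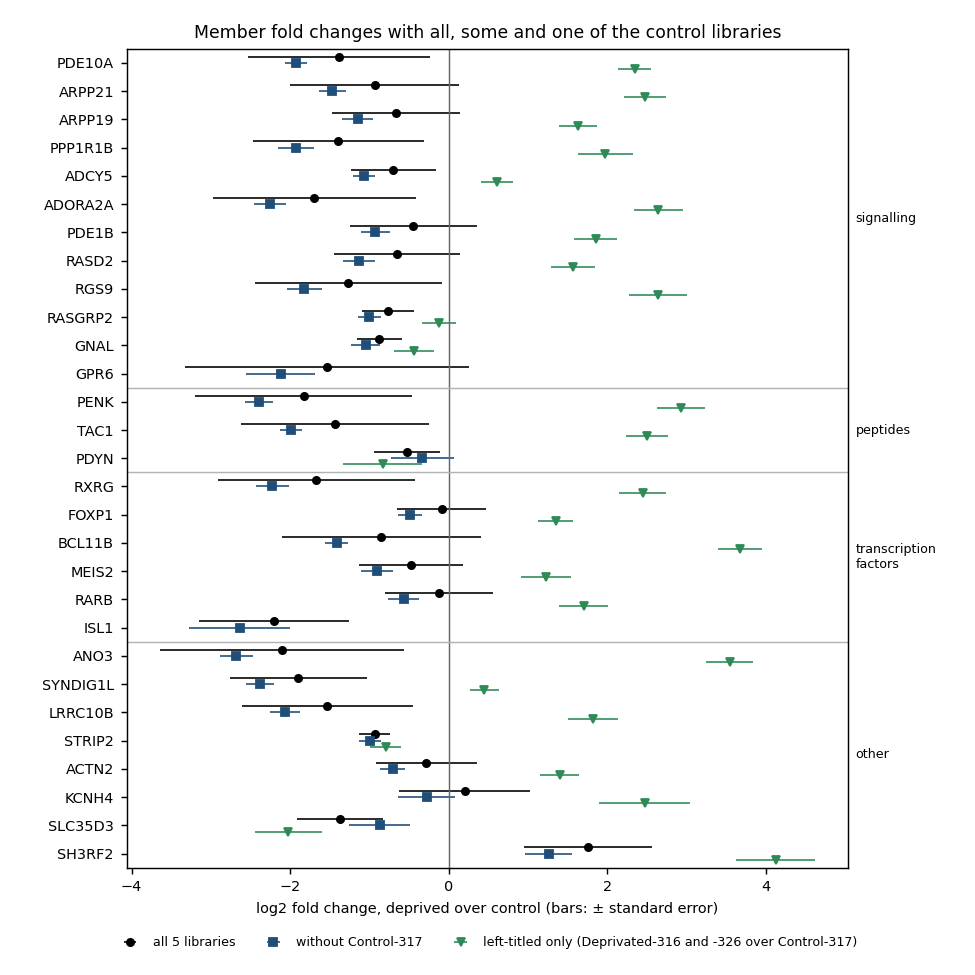
Log2 fold change of deprived over control for each member in edgeR's quasi-likelihood fit, with bars of ± 1 standard error, for all 5 libraries (circles), without Control-317 (squares) and for the left-titled libraries only (triangles). Squares lie left of 0 for 28 of 29 members and most triangles right of it, and STRIP2 stays between -0.99 and -0.80. GPR6 and ISL1 have no triangle, because GPR6 was at 0 in Control-317 and ISL1 was not tested.

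With Control-317 and Deprivated-316 exchanged, as in the published means, 28 of 29 members were lower in the group of Control-317 and Deprivated-326 than in the other 3 libraries, with a median log2 fold change of -1.64. At an unadjusted p under 0.05 there were 20 of 29 on the lower side, against 2.95% of all genes (50.9% of which had a lower estimate), and 0 passed the adjusted threshold in edgeR's quasi-likelihood test. SLC35D3 was the 1 member on the higher side, at 0.89. Under this division the low group holds the library lowest in striatal genes and the high group both of the highest.

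Further striatal markers, a list of 18 genes that are no members and also chosen with earlier results known, behaved alike. Of 17 tested, 16 had a lower estimate in the deprived libraries by the labels (55.1% of all genes), with a median log2 fold change of -0.64 and 0 past edgeR's adjusted threshold in either direction; GNG7 was not analysed here. The order of libraries seen in the members held for 11 of the 17 (12.4% of all genes), and without Control-317 edgeR called 10 of 17 as lower and 1, the forkhead factor FOXP2, as higher, against 3.68% and 6.46% of all genes. GPR149, an orphan receptor, had 9.25 and 7.64 CPM after deprivation and 58.6, 37.6 and 3.92 CPM in Control-307, Control-331 and Control-317, while SCN4B, a sodium channel beta subunit, had 28.7 and 38.5 CPM against 80.0, 89.2 and 31.1 CPM. EBF1 and IKZF1, transcription factors also used by blood cells, had log2 fold changes of -0.88 and -0.44 (edgeR adjusted p = 0.591 and 0.671). DRD1, the dopamine receptor of direct pathway neurons, had 124 and 98.1 CPM in the deprived animals and 437, 375 and 40.9 CPM in Control-307, Control-331 and Control-317. DRD2, that of indirect pathway neurons, had 66.8 and 40.7 CPM after deprivation and 193, 183 and 6.08 CPM in the same control libraries.

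Genes of cyclic AMP and DARPP-32 signalling that most neurons use, a list of 35, did not share the order. Of 32 tested, 17 had a lower and 15 a higher estimate in the deprived libraries (55.1% of all genes being lower), with a median log2 fold change of -0.05, and the order of libraries held for 5 (12.4% of all genes). None passed edgeR's quasi-likelihood test in either direction, 5 had an unadjusted p under 0.05, all higher (GNG3, ADCY2, ADCY9, PDE4A and PRKAR2A, against 5.69% of all genes), and DESeq2 called GNG3, ADCY2 and ADCY9 as higher, against 1.69%; GNAS and CSNK1E were not analysed here. GNG3, a G protein gamma subunit of neurons, had 102 and 85.3 CPM after deprivation and 40.6, 42.0 and 38.5 CPM in Control-307, Control-331 and Control-317 (edgeR log2 fold change 1.21 with a standard error of 0.185, adjusted p = 0.270, DESeq2 adjusted p = 0.000106). Adenylyl cyclases other than ADCY5 were among the higher ones. ADCY2 had 111 and 85.0 CPM in the deprived animals and 33.8, 39.9 and 52.1 CPM in the same control libraries, and ADCY9 had 17.3 and 15.01 CPM against 5.69, 5.45 and 7.44 CPM. PDE4A, a phosphodiesterase of cyclic AMP, had 40.8 and 25.2 CPM after deprivation and 15.1, 9.95 and 4.96 CPM in the control libraries. The genes given with CPM here were named for the smallest p of the list and do not stand for all of it. They were high in both deprived libraries, as were the cortical or hippocampal excitatory markers. The part of those markers was not tested.

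At the level of transcripts the 29 genes had 148 annotated variants, of which 113 could be tested. In edgeR's quasi-likelihood test 0 of 113 passed the adjusted threshold and 11 had an unadjusted p under 0.05, 6 lower and 5 higher, against 2.99% and 3.42% of all 33469 transcripts. DESeq2 called 5, 4 lower and 1 higher, against 1.85% and 1.21% of all transcripts, and edgeR's exact test called 0 lower and 1 higher, against 0.607% and 0.78%. The main variants of most members had the order of the gene totals. PDE10A variant X7 had 499 and 475 CPM after deprivation and 2167, 2162 and 87.5 CPM in Control-307, Control-331 and Control-317, and ARPP21 variant X35 had 284 and 216 CPM against 1370, 1211 and 31.8 CPM. ADORA2A variant X5 had 45.2 and 53.3 CPM in the deprived animals and 268.5, 257.5 and 2.99 CPM in the same control libraries. GNAL and RASGRP2 broke the order as genes, but their most abundant variants had it. GNAL variant X2 had 30.4 and 28.7 CPM after deprivation and 58.2, 75.8 and 10.2 CPM in these controls. RASGRP2 variant X4 had 27.7 and 35.1 CPM against 69.3, 53.8 and 21.9 CPM.

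Some variants took different shares of their gene in different libraries. PDE10A variant X11 was at 0 in both deprived libraries and in Control-317, but at 1196 and 744 CPM in the right-titled controls, or 30.3% and 21.2% of the gene's estimated counts (DESeq2 adjusted p = 2.19e-07, edgeR adjusted p = 0.806). PDE10A variant X4 went the other way, with 53.4 and 39.9 CPM after deprivation and 3.07, 6.41 and 10.8 CPM in Control-307, Control-331 and Control-317 (DESeq2 adjusted p = 0.00481, edgeR's exact test adjusted p = 0.0223). It was singled out after its values were seen, as the 1 variant called by both tests. The other 3 that DESeq2 called were the single STRIP2 transcript, BCL11B variant X2 and FOXP1 variant X13, and BCL11B variant X2 was above 0 only in Control-331, at 11.35 CPM. FOXP1 variant X17 made up 5.998% and 6.32% of FOXP1 counts in the deprived libraries and 21.1%, 21.6% and 0.162% in Control-307, Control-331 and Control-317. ANO3 variant X3 held 74.6% and 77.1% of ANO3 counts in the deprived libraries and 97.6%, 97.2% and 90.5% in the same control libraries, the remainder being mostly variant X2. Shares of overlapping variants are estimates of StringTie, which can move reads between them, so that the gene totals are the firmer values.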

How the data were processed

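RNA of the LGN of 5 monkeys had been sequenced by Illumina protocols after enrichment of mRNA on oligo-dT beads. The authors filtered reads with fastp 0.18.0, aligned them to Macaca_fascicularis_5.0 (HISAT2 in the methods, Bowtie2 2.2.8 in the submitters' processing notes) and quantified transcripts with StringTie 1.3.4. The deposited files hold estimated counts and FPKM of 62655 RefSeq transcripts, as the authors made them. Whether counting used strand is not given in the sources used here.

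Estimated counts were summed over the transcripts of each symbol and rounded. They were tested with edgeR 4.0.16 (R 4.3.3; filterByExpr, TMM, quasi-likelihood test, Benjamini-Hochberg adjustment over all genes, threshold 0.05), which kept 14317 genes, and likewise for 33469 transcripts. The standard error is the log2 fold change divided by the root of F. Alternatives were DESeq2 1.42.0, edgeR's exact test, limma 3.58.1 on log2(FPKM + 0.1) and log2(FPKM + 1), other size factors, no filter, each library left out, left-titled libraries only, and Control-317 and Deprivated-316 exchanged. Tests were tested on simulated data. A published mean counted as equal when it differed by at most 0.01, or 0.001 of its value.

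The members and lists were chosen with earlier results of these data known. All 29 members are named, and full statistics are given for those with an unadjusted p under 0.05 or, if fewer than 4, the 8 of smallest p. From each further list the 4 genes of smallest p are named, with DRD1 and DRD2. For members with several variants reaching 5 CPM, the 2 most abundant could be named. Totals of 7391844 to 12966019 counts put the floor of 3 counts at 0.24 to 0.41 CPM, a limit for counting error alone (no molecular identifiers were used). Each library is labelled with its own animal number, and the animals serve as replicates. No coordinates or sequences are given, since no sequence of the authors' assembly was used here. The qPCR, Western blot and staining are not analysed here.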

Additional observations from a re-analysis of the deposited data

How the results depend on the processing

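Over the 29 members and their alternatives, 343 of 403 fold changes kept direction and side of the threshold, 21 passed it newly (20 without Control-317, 1 in DESeq2), 0 lost it and 39 changed sign. Genes called numbered 0 by edgeR's quasi-likelihood test, 328 by DESeq2, 227 by edgeR's exact test and 1 by limma on log2(FPKM + 1), and 0 to 1420 with 1 library left out (1420 without Control-317). Members called numbered 1 by DESeq2 and 0 to 20 with 1 library left out (20 without Control-317). Member transcripts called numbered 5 by DESeq2 and 1 by edgeR's exact test. The members' median was 1.84 among left-titled libraries and -1.15 to -0.66 with 1 library left out, and members on the lower side, an alternative chosen after seeing the data, numbered 5 and 23 to 28. Other size factors and no filter changed no call of a member.

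Among left-titled libraries the sign changed for ACTN2 (1.40), ADCY5 (0.61), ADORA2A (2.64), ANO3 (3.545), ARPP19 (1.63), ARPP21 (2.475), BCL11B (3.67), FOXP1 (1.35), GPR6 (9.22, a fitted value against 0 counts), LRRC10B (1.82), MEIS2 (1.22), PDE10A (2.35), PDE1B (1.85), PENK (2.93), PPP1R1B (1.97), RARB (1.70), RASD2 (1.57), RGS9 (2.64), RXRG (2.45), SYNDIG1L (0.45) and TAC1 (2.50). In limma on log2(FPKM + 0.1) it changed for BCL11B (0.12), FOXP1 (0.026), GPR6 (0.049) and RARB (0.09), and on log2(FPKM + 1) for FOXP1 (0.005) and RARB (0.04). With Control-317 and Deprivated-316 exchanged it changed for KCNH4 (-1.62), SH3RF2 (-0.72) and SLC35D3 (0.89). With 1 library left out, ACTN2 ranged over -0.71 to 0.039, FOXP1 over -0.485 to 0.24, KCNH4 over -0.43 to 0.66 and RARB over -0.57 to 0.22. The cause of these changes was not tested. ISL1 was not tested among the left-titled libraries, without Control-307 or without Control-331, so that these fits held 28 members. No paired analysis was possible because the groups share no animal number. Low counts limit ISL1, GPR6 and SLC35D3.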
